A study of Arabidopsis thaliana with 9 samples.

Results

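LFY bound 380 sites in proximal promoters of callus chromatin, out of 1177 binding sites on the nuclear chromosomes (32.3%) and 1181 in the whole peak list. A site was counted here when the summit of its ChIP-seq peak, the base with the strongest signal, lay outside every protein-coding gene body and no more than 1000 bp upstream of at least 1 protein-coding gene start, with the direction of each gene taken into account. The rule used position only, so the strength of binding, the DNA sequence under the summits and the identity of the genes were open to description. The allowed DNA, meaning all bases that satisfied the same rule, was 16.7 Mb or 14% of the 5 chromosomes.

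The tissue was callus from roots of Landsberg erecta (L.er) seedlings aged 3 weeks, kept for 5 days on callus inducing medium, and every sample, the controls included, carried the transgene 35S:LFY-GR in an otherwise wild-type background. The constitutive 35S promoter drives a fusion of LFY with the steroid-binding part of the glucocorticoid receptor, which moves into the nucleus when the steroid dexamethasone (dex) is added. Anti-LFY antibodies were used on 3 samples treated with 5 µM dex for 1 h and on 3 mock-treated samples, and 3 inputs had no antibody. The treatment time is that of the sample labels, whereas the text on the series gives a longer one. The 3 dex libraries were pooled and called against the 3 pooled mock libraries, so no value below has an error between replicates.

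LEAFY (LFY) is a plant transcription factor that turns newly formed primordia into flowers. It binds a palindromic DNA site as a monomer or a dimer, and its best known targets include the floral homeotic gene APETALA1 (AP1). A proximal promoter is the stretch just before a gene start where transcription factors commonly bind, and where neighbouring genes point away from each other a single site may lie upstream of both.

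The centre of the LFY consensus is CCANTGG. Of the 380 promoter summits, 64 had an exact match within 150 bp, beside 13.1% of all nuclear summits, and 38 of the 64 (59.4%) had it within 25 bp. The sequences of 9 such sites are shown to let the flanks be compared across promoters of different strength and gene function. They are RefSeq TAIR10.1 (Columbia) sequence on the strand of the downstream gene, with the 7 bases of the core in capitals, and with TAIR10 coordinates. The first 6 belong to the 12 highest folds among cores within 25 bp, and HAE, AP1 and GRF5 were chosen after their values were seen because of their high read numbers.
AT4G22980, chr4:12046162-12046188, minus strand, core 335 bp upstream: cttttagtggCCATTGGtcaataaaca
AT4G24030, chr4:12487093-12487119, minus strand, core 473 bp upstream: aggccagtgcCCACTGGttctcacagc
IDL1, chr3:9338922-9338948, minus strand, core 860 bp upstream: atatctgtctCCAGTGGacgatcaaaa
HAC5, chr3:4146286-4146312, plus strand, core 100 bp upstream: cgtaaaagtgCCACTGGtgttgtgttc
TPPE, chr2:9436813-9436839, minus strand, core 168 bp upstream: agtatatggaCCAGTGGaccaaacaaa
AT4G31875, chr4:15412742-15412768, minus strand, core 304 bp upstream: gtcgtactaaCCATTGGtcagccgtac
HAE, chr4:14077518-14077544, plus strand, core 145 bp upstream: tggagagtgaCCATTGGtccattctgt
AP1, chr1:25986505-25986531, minus strand, core 169 bp upstream: tggggaaggaCCAGTGGtccgtacaat
GRF5, chr3:4607209-4607235, plus strand, core 854 bp upstream: ccttctttatCCAATGGtctctcccct
Exact cores were also looked for under the strongest promoter summits. Of the 15 with the highest fold, only AT4G22980 had an exact core within 150 bp, and 11 had a match with at most 1 mismatch in that window, at a median distance of 43 bp over all 15 when the nearest such match was taken. By −log10 q instead, an exact core was found at 51 of the 241 promoter summits at 20 or more (21.2%) and 21 of the 92 at 50 or more (22.8%), against 16.8% of all 380, and the median fold was 4.53 with a core and 3.93 without. These shares and medians have no test. The nearest such matches at 3 of the 6 highest folds are shown with the matching stretch in capitals. These 3 were the closest of the 6. Those at AT5G02530, AT1G13360 and GA2OX4 lay 118, 288 and 421 bp from the summit.
AR781, chr2:11284883-11284909, minus strand, 3 bp from the summit: tttattaggaCCACCGGttaaattggc
LOJ, chr2:16381076-16381102, plus strand, 5 bp from the summit: agtaacatacCTAGTGGagatatataa
BCA6, chr1:21540019-21540045, minus strand, 33 bp from the summit: tcttcaacaaCGATTGGtgctggatta
A match with 1 mismatch is a weak description, since 286 of the 380 promoter summits (75.3%) had one within 150 bp.

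Exact cores were concentrated at the summits. The share of promoter summits with a core was 16.8% (64 of 380, 95% Wilson interval 13.4 to 20.9%), against 3.95% (15 of 380, 2.41 to 6.41%) in windows of the same size centred 1000 bp to the left. A core was present only at the summit in 63 pairs and only in the left window in 14 (exact two-sided binomial test on these pairs, McNemar, p = 1.41e-08, 1.56e-07 after Benjamini-Hochberg adjustment over the 11 tests made). For comparison, 3.17% of 51704 windows of the same length tiled over the allowed DNA held the motif. Among the 64 members with a core, the nearest lay a median of 18 bp from the summit, 18 had it within 10 bp and 9 had it more than 100 bp away. The 64 members held 66 cores, and the central base of 42 of these (63.6%) was A or T, against 73.1% of the 1848 cores in the allowed DNA.

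**Figure D1:**
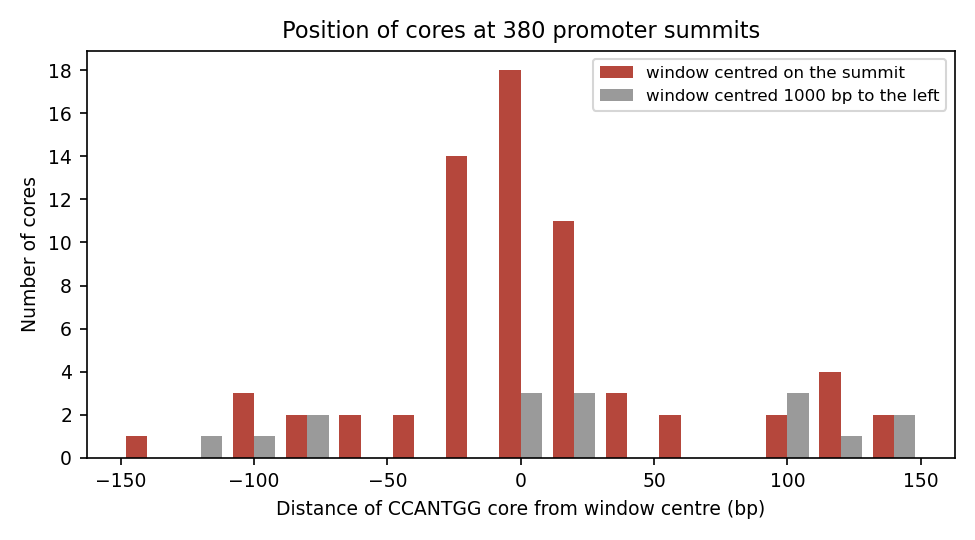
Number of CCANTGG cores (y axis) by their distance in bp from the centre of the window (x axis), in bins of equal width, for windows centred on the 380 promoter summits (red) and 1000 bp to the left of them (grey). The 66 cores at summits crowd around 0, whereas the 16 cores of the left windows are spread over the whole window.

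The core share was compared with that of the other nuclear summits, split by position. Intergenic summits that were not within 3000 bp upstream of any start had a core in 17 of 232 cases (7.33%, 4.63 to 11.4%), which was 9.51 percentage points lower than at promoter summits (Fisher's exact test, two-sided, adjusted p = 0.00446). The call did not hold under 3 alternatives. The difference was 10.5 points among summits with a −log10 q of at least 50 (Fisher's exact test, adjusted p = 0.424), 5.9 points with a core window of 50 bp (adjusted p = 0.105, exact) and 3.28 points with up to 1 mismatch (adjusted p = 0.721, exact). Summits 1000 to 3000 bp upstream had a share of 12.5% (40 of 320, 9.32 to 16.6%) and summits inside gene bodies 13.5% (33 of 245, 9.75 to 18.3%), and neither difference from the promoters passed the test (Fisher's exact test, adjusted p = 0.407 and 0.607). These tests treat summits as independent, and intervals cover counting error only.

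Other short motifs, searched on both strands up to 150 bp to either side of each summit, gave a graded picture. The W-box core TTGACC, bound by WRKY factors, was present at 28.4% of promoter summits (24.1 to 33.2%) and in 12.7% of tiled windows, and at 24.3% of the other nuclear summits. In 6 of the 108 members with TTGACC it overlapped a core. The G-box CACGTG was present at 13.7% (10.6 to 17.5%) of promoter summits, 5.15% of tiled windows and 11.2% of the other summits, and no match overlapped a core. Its median distance from the summit was 51.5 bp, and that of TTGACC was 41 bp, both longer than the 18 bp of the core. The palindrome TGGNCCA, with the arms of the core swapped, was at 12.1% of promoter summits, in 5.78% of windows and at 10.7% of the other summits. In 8 of its 46 members it overlapped a core. The auxin response element TGTCTC (14.5% against 11.9% of windows), the GCC-box GCCGCC (2.63% against 1.57%) and the TATA-box letters TATAAA (190 of 380 members against 54.2% of windows) were closer to the windows. At the other nuclear summits TGTCTC was at 16.6%, GCCGCC at 3.26% and TATAAA at 45.3%. The G and C content was 33.2% at promoter summits, 30.2% in the tiled windows and 33.9% at the other summits. A letter match is a description and says nothing about which proteins were bound, and the part of base composition in these shares was not tested.

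Promoter summits were spread over the whole kilobase before the start. The median distance to the nearest downstream start was 400.5 bp (quartiles 169.8 and 662 bp, range 2 to 998 bp), and 113 summits (29.7%) lay within 200 bp. Because short intergenic regions leave less DNA far from starts, the count in each step of 100 bp was divided by the allowed DNA at that distance. The density over all allowed DNA was 22.8 summits per Mb (exact 95% Poisson interval 20.5 to 25.2), against 9.88 per Mb (9.32 to 10.5) for all nuclear summits over the 5 chromosomes, a contrast of position, which the rule used. Density was 22.2 per Mb (16.7 to 28.96, 54 summits) in the first 100 bp and 27.2 per Mb (20.7 to 35.03, 59 summits) in the next. It was lowest from 701 to 800 bp, at 10.7 per Mb (5.84 to 17.9, 14 summits), and from 401 to 500 bp, at 12.01 per Mb (7.34 to 18.5, 20 summits). It was highest from 601 to 700 bp, at 33.2 per Mb (24.4 to 44.1, 47 summits). The counts thus went up and down along the promoter without a single slope, and the intervals of most neighbouring steps overlapped.

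**Figure D2:**
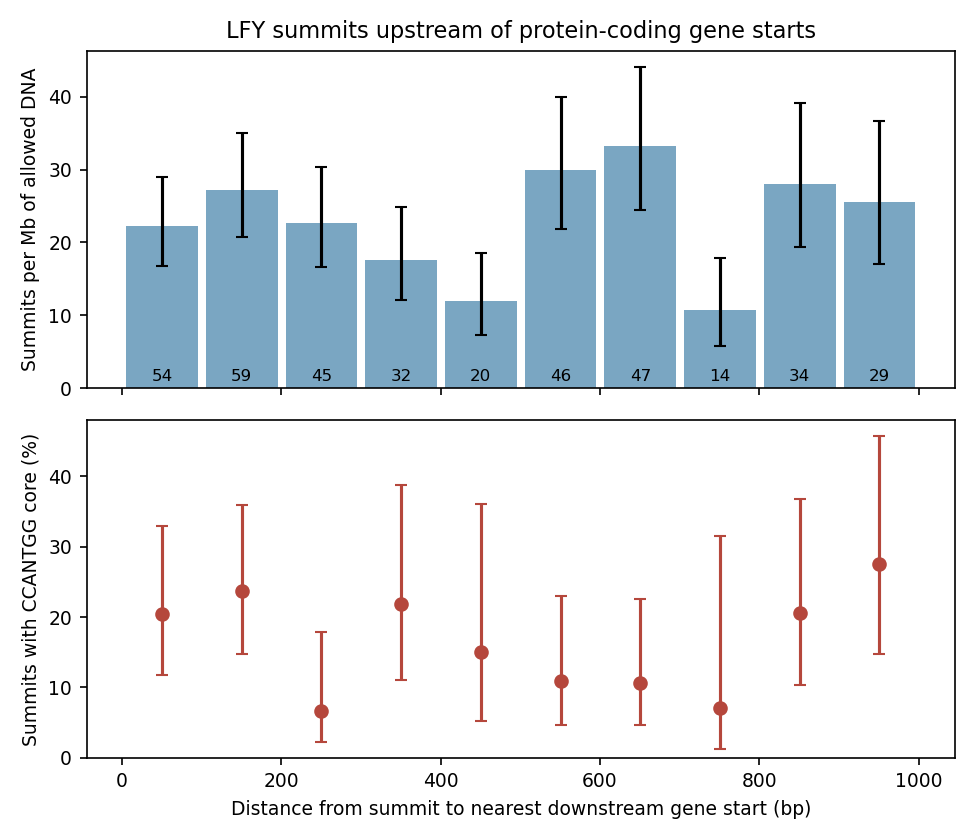
Top, LFY summits per Mb of allowed DNA in steps of 100 bp of distance to the nearest downstream gene start, with the number of summits in each bar and exact 95% Poisson intervals. Bottom, share of these summits with an exact core within 150 bp, in percent, with 95% Wilson intervals; the share ranges from 6.67% (3 of 45 summits) at 201 to 300 bp to 27.6% at 901 to 1000 bp.

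No difference by distance passed the test, either for the core or for the strength of binding. A core was found at 38 of 210 summits within 500 bp of the start (18.1%, 13.5 to 23.9%) and at 26 of 170 summits farther away (15.3%, 10.7 to 21.5%; Fisher's exact test, adjusted p = 0.679). Fold enrichment above the median of all nuclear summits, which 49.6% of those exceeded, was found at 48.6% (41.9 to 55.3%) and 50.6% (43.1 to 58.01%) of them (Fisher's exact test, adjusted p = 0.833). Folds just inside and just outside the 1000 bp limit overlapped. The last 4 summits inside it, upstream of DGL (986 bp), AT5G51920 (988 bp), AT1G29060 (991 bp) and AT4G31140 (998 bp), had folds of 4.99, 3.82, 3.71 and 2.92. The first 4 outside it, upstream of NUDT17 (1003 bp), PIP1;4 (1006 bp), AT1G66480 (1007 bp) and SNRK2.9 (1009 bp), had folds of 6.19, 4.34, 5.25 and 3.37. By chromosome, promoter summits made up 104 of 322 nuclear summits on chromosome 1, 62 of 223 on chromosome 2, 76 of 217 on chromosome 3, 51 of 159 on chromosome 4 and 87 of 256 on chromosome 5.

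Binding strength at promoter summits ranged widely. The deposited fold enrichment, dex over mock with 1 added to both after scaling for depth, had a median of 4.01 (quartiles 3.36 and 5.22) and ran from 2.5 to 18.6. The −log10 q of the peak caller had a median of 25.6 and ran from 10.1, next to the threshold of the list, to 386.7, and 92 promoter summits were at 50 or more (22.2% of all nuclear summits were). Behind these values stood 72 to 701 pooled dex reads over the summit base (median 116.5), each read extended to 138 bp, recovered here from the fold and the p-value. The mock background per 138 bp had a median of 20 and a maximum of 106 reads. It rested on mock reads counted at the summit itself in 219 members, on 1 kb or 10 kb around it in 27 and 39, and on the genome-wide floor of 17.97 reads in 95. For these 95 the fold is set against the floor and not against local mock reads.

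No difference in binding strength between promoter summits and the other classes passed the test. Fold above the nuclear median was found in 49.5% (188 of 380, 44.5 to 54.5%) of promoter summits, 49.1% (43.6 to 54.5%) of those 1000 to 3000 bp upstream, 46.9% (40.8 to 53.2%) of those in gene bodies and 53.4% (47.03 to 59.8%) of the remaining ones (Fisher's exact test, adjusted p = 0.94, 0.692 and 0.607 against the promoters). The median folds of the 3 other classes were 4.03, 4 and 4.21. The floor supplied the background more rarely at promoters (95 of 380) and in gene bodies (21.6%) than 1000 to 3000 bp upstream (39.7%) and at the remaining summits (43.5%), a difference in mock reads that was not tested.

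**Figure D3:**
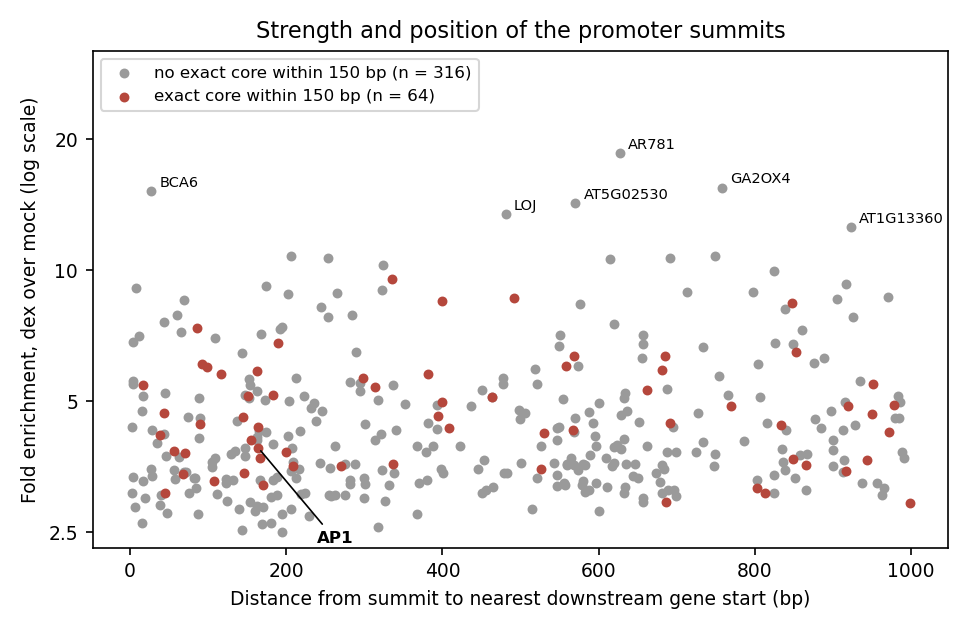
Deposited fold enrichment of the 380 promoter summits (log scale) against the distance in bp from the summit to the nearest downstream gene start; red points have an exact core within 150 bp (n = 64), grey points do not (n = 316). High folds occur at all distances, the 6 labelled highest are all grey, and AP1 lies near the median fold.

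The strongest promoter summits lay upstream of genes with diverse functions and at no common distance. The highest fold, 18.6, was 627 bp upstream of AR781, annotated as a DUF1645 protein, with 566 dex reads over 23 mock reads. After scaling for depth these reads were in a ratio of 19.4 (exact 95% interval 12.8 to 30.8). GA2OX4, a gibberellin 2-oxidase of the enzyme class that inactivates gibberellins, followed at 758 bp with a fold of 15.5, 489 dex reads over 24 mock reads and a ratio of 16.1 (10.7 to 25.3). Both lacked an exact core within 150 bp. The nearest one to the GA2OX4 summit was 421 bp away, inside the same peak interval. BCA6, a beta carbonic anhydrase, had a summit 27 bp from its start with a fold of 15.2 and 364 dex reads, and the mock background there was at the floor.

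Next came AT5G02530, an RNA-binding protein gene (570 bp, fold 14.3), LATERAL ORGAN JUNCTION or LOJ (481 bp, fold 13.5) and AT1G13360, which has no annotated function (923 bp, fold 12.6). Their ratios of dex to mock reads were 15.1 (9.39 to 25.7), 14.1 (8.92 to 23.8) and 13 (8.71 to 20.4), so the intervals of these top members overlapped one another. Folds from 10.8 to 9.3 completed the leading 15, and several of these genes encode enzymes or secreted proteins. They were AT2G22426, IDL4 (an IDA-like signalling peptide), AT2G39170, EXLA3 (an expansin-like protein), EFE (an ethylene-forming enzyme), AO (L-aspartate oxidase, the first enzyme of NAD synthesis in plants), HB53 (a homeodomain factor), AT4G22980 (annotated as molybdenum cofactor sulfurase-like) and AT2G13900. The EFE summit, 614 bp upstream, had 281 dex reads over 20 mock reads and a fold of 10.6. The 10 highest −log10 q values brought in 3 further genes, AT4G31875 (216.9), UTR3, a nucleotide sugar transporter (177.3), and BRL1, a receptor of the brassinosteroid receptor family (167.1).

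Read number and fold ranked the members differently. The 10 members with the most dex reads had 414 to 701, and 5 of these had an exact core, against 1 of the 15 highest folds. The share over all 380 promoter summits was 16.8%, and these small counts have no test. The most reads, 701, were 298 bp upstream of AT4G31875, a gene of unknown function, over 97 mock reads, which gave a fold of 5.65. AP1, the floral homeotic gene, had 460 dex reads over 92 mock reads at a summit 164 bp upstream, a fold of 3.91 and a ratio of 3.94 (3.14 to 4.98), with its core 5 bp from the summit. The AP1 summit was thus among the 10 deepest promoter summits while its fold was just under the median of 4.01.

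HAE, the HAESA receptor kinase of floral organ abscission, had 416 dex and 63 mock reads 151 bp upstream, a ratio of 5.2 (3.98 to 6.89), and a core 6 bp away. GRF5, a growth-regulating factor of leaf growth, had 424 dex and 90 mock reads 849 bp upstream and a fold of 3.68. LSH3, also called ORGAN BOUNDARY 1, had 475 dex and 81 mock reads 979 bp upstream, a fold of 4.58, and no exact core. The highest mock value, 106 reads beside 552 dex reads, stood 155 bp upstream of AT3G27340, a Myb domain gene that shares the site with AT3G27330.

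Mock background at these sites was well above the floor. It reached at least 2 times the floor at 29 promoter summits (7.63%), against 5.52% of all nuclear summits and 36 (4.52%) of the other nuclear summits. Of these 29, 9 had an exact core (31.03%), and of the remaining 351 promoter summits 55 did (15.7%), a split that was looked at after the values were seen and has no test. The median fold of the 29 was 4.55, with a median of 314 dex reads. What raised the mock reads was not tested.

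**Figure D4:**
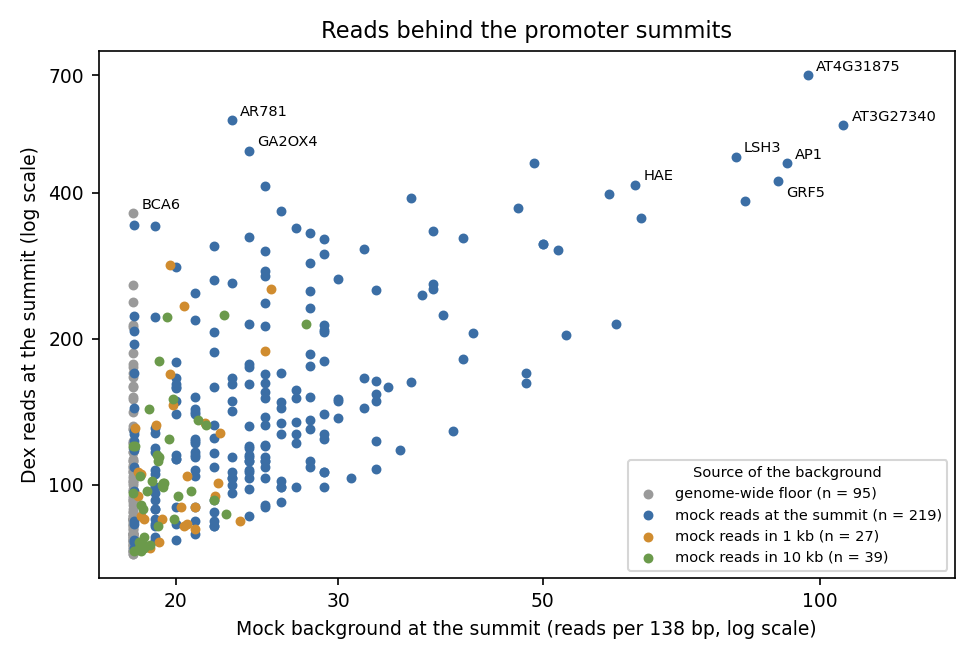
Pooled dex reads over the summit base against the mock background per 138 bp (both log scale) for the 380 promoter summits, coloured by the source of the background. AR781, GA2OX4 and BCA6 combine many dex reads with a background near the floor of 17.97, whereas AT4G31875, AT3G27340, AP1, GRF5, LSH3 and HAE combine many dex reads with 63 to 106 mock reads.

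Divergent promoters, with gene starts on both strands within 1000 bp, accounted for 42 of the 380 promoter summits (11.1%). Such DNA made up 10.8% of the allowed DNA (1.81 Mb), and the density of summits was 23.3 per Mb (16.8 to 31.4) there and 22.7 per Mb (20.4 to 25.3) in the 14.9 Mb with starts on 1 strand. Fold above the nuclear median was found at 17 of the 42 divergent summits (40.5%, 27.04 to 55.5%) and 171 of the 338 others (50.6%, 45.3 to 55.9%; Fisher's exact test, adjusted p = 0.607), and the median folds were 3.45 and 4.08. A core was present at 9 of 42 (21.4%, 11.7 to 35.9%) and 55 of 338 (16.3%, 12.7 to 20.6%; Fisher's exact test, adjusted p = 0.607). With an upstream limit of 500 bp the divergent share became 6 of 13 against 32 of 197 (Fisher's exact test, adjusted p = 0.0466), a call that rests on 13 summits.

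The divergent pair with the highest fold was BCA6 and RLP9, a receptor-like protein gene, whose starts lay 27 and 519 bp from the summit described above. A summit between AT4G24030 (491 bp) and TRE1 (916 bp), which encodes trehalase, had a fold of 8.65 and 234 dex reads, and a core 18 bp away. BAK1, the coreceptor kinase of brassinosteroid and immune receptors, shared a summit 692 bp from its start with AT4G33440, a pectin lyase-like gene whose start was only 11 bp away (fold 7.08, 180 dex reads). The summit between TLP8 (92 bp) and AT1G16080 (190 bp) had 323 dex and 41 mock reads, a ratio of 6.21 (4.48 to 8.81), and its core was 107 bp away. SPX1, a sensor protein of phosphate status, lay 924 bp from a summit that was 381 bp from HBP5, a heme-binding protein gene (fold 5.77), and AT4G30490 and AT4G30500 shared the sixth (477 and 730 bp, fold 5.65). Without regard to distance, the protein-coding gene on the other side of the summit lay on the opposite strand at 193 of the 380 promoter summits and on the same strand at 187. Of all members, 11 lay inside genes annotated as noncoding. Which gene of a pair responds cannot be read from binding data.

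Together the 380 summits lay upstream of 413 protein-coding genes, 1.50% of the 27444 in the annotation. No summit had more than 2 starts in reach, and 10 genes had 2 promoter summits each. HB53, a homeodomain-leucine zipper gene, had the highest sum of dex reads among these, with 238 reads 825 bp upstream (fold 9.94) and 107 reads 238 bp upstream (fold 4.5). BRG3 followed with 141 reads at 88 bp and 157 at 816 bp, and GATL10, a galacturonosyltransferase-like gene, with 177 reads at 194 bp and 113 at 897 bp. AT2G26520 had 98 reads at 88 bp and 152 at 569 bp, where an exact core was present. PP2-B14, a phloem protein gene, had 130 reads over a site 16 bp from its start with a core, and 113 at 913 bp without one. TCP20, a growth-related TCP factor, had 134 and 99 reads at 263 and 835 bp. Of the 380 promoter summits, 105 (27.6%) had another summit within 3000 bp, against 303 of the 797 other nuclear summits (38.02%) and a background of 34.7% for all.

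Genes were then grouped by family, and 1.50% of all protein-coding genes were bound. Most families were collected by gene symbol or annotation text, so the lists miss members with other names. Wider text patterns, chosen after the data were seen, were run for 10 of the families and added bound genes to 4 of them, which are given with their wider counts. The wider shares of all 10 families, some of them lower, are given at the end. The wider lists still miss members whose annotation does not name the family, so counts and shares are those of the lists. Promoters of the families differed little in the DNA open to the rule for the transcription factors (median 1000 bp for WRKY and MYB genes, 950 bp for all genes), but it was 385.5 bp for ribosomal protein genes, 368.5 bp for pentatricopeptide repeat genes, 475 bp for photosystem genes and 589 bp for histone genes. The shares were not corrected for this length. They are descriptions and no enrichment was tested.

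**Figure D5:**
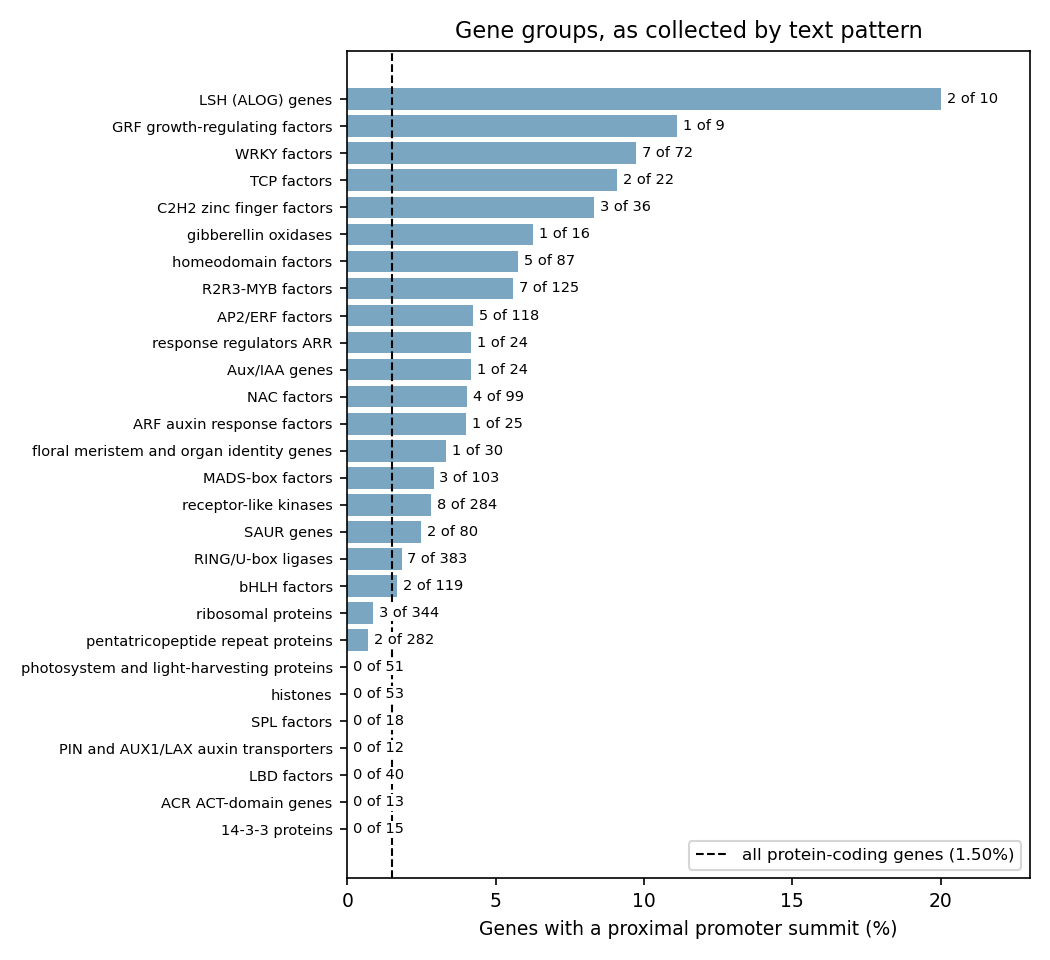
Share of genes in each list of a gene family with a LFY summit in the proximal promoter, in percent, with the number bound and the number of genes beside each bar. The dashed line marks the 1.50% of all protein-coding genes; 7 of the lists have no bound gene, among them that of LBD factors, which does not hold the bound gene AT5G15060.

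WRKY factors, which bind W-boxes and act mostly in defence, had 7 of 72 genes bound (9.72%). WRKY3 was the strongest (926 bp, fold 7.82, 187 dex reads), followed by WRKY11 (681 bp, fold 5.91, with a core), WRKY23 (928 bp, fold 4.41) and WRKY18 (28 bp, fold 4.29). WRKY40, WRKY8 and WRKY66 completed the group with folds of 3.08, 3.02 and 2.82. R2R3-MYB factors had 7 of 125 bound (5.6%), led by MYB30, a regulator of the hypersensitive response (60 bp, fold 7.89), MYB107 (657 bp, fold 7.10), MYB51, which controls indole glucosinolate synthesis (657 bp, fold 6.77, 334 dex reads), and MYB63 (506 bp, fold 4.70). The group also held RAX1 (MYB37), a regulator of axillary meristems, 688 bp upstream with 135 dex and 27 mock reads (fold 3.83), and LMI2 (MYB17), a meristem identity factor, 684 bp upstream with 163 dex and 36 mock reads (fold 3.50). Neither had an exact core.

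Homeodomain factors had 5 of 87 genes bound (5.75%). Besides HB53 they were HAT2, an auxin-induced gene (636 bp, fold 4.76), HB40 (394 bp, fold 4.62), HB17 (530 bp, fold 4.22) and HB32 (45 bp, fold 3.07), and the last 3 had an exact core 14, 7 and 34 bp from the summit. AP2/ERF factors had 5 of 118 bound (4.24%), with TEM1, a repressor of flowering, the strongest (713 bp, fold 8.93, 248 dex reads). AIL6 or PLETHORA 3, which acts in meristems and young flowers, had a summit 153 bp upstream (fold 5.46), CRF2, a cytokinin response factor, 885 bp (fold 4.33) and ERF5 188 bp (fold 3.34). MADS-box factors had 3 of 103 bound (2.91%), namely GOA (981 bp, fold 5.16, on a summit shared with AT1G31130), AP1 and MAF4, a flowering-time gene (160 bp, fold 2.79, 215 dex over 60 mock reads). Of 30 floral meristem and organ identity genes listed, AP1 was the only one with a proximal promoter summit (3.33%). This list did not hold the meristem identity gene LMI2, which had such a summit (684 bp, fold 3.50).

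The remaining factor families held few bound genes each. C2H2 zinc finger factors had 3 of 36 in the list by symbol (8.33%), among them ZFP7 (69 bp, fold 8.55), but 4 of 118 (3.39%) with the wider pattern, which added AT1G68360 (8 bp, fold 9.12, 265 dex reads). WIP4, a bound gene of the same family (589 bp, fold 3.77), was in neither list. TCP factors had 2 of 22 (9.09%), or 2 of 37 (5.41%) with the wider pattern. They were TCP20 and TCP1 (400 bp, fold 4.99, with a core). LSH genes, of the plant ALOG family of organ boundary and light response factors, had 2 of 10 bound, LSH3 and LSH2, and the LSH2 summit 99 bp upstream had 158 dex and 20 mock reads (fold 5.98) with a core 5 bp away. GRF5 was the 1 bound of 9 growth-regulating factors. NAC factors had 4 of 99 (4.04%, folds 3.67 to 4.57, among them NAC049 with 4.57) and SPL factors (18 genes) none. The bHLH list held 2 bound genes of 119 (1.68%, beside 1.50% of all protein-coding genes). It missed the bound bHLH gene BEE1 (288 bp, fold 3.58). The list of 40 LBD factors by symbol held no bound gene, and the wider list of 43 held 1, AT5G15060 of the LOB domain family (236 bp, fold 4.95, 162 dex reads).

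The bound hormone genes fell in several pathways, some with a single bound gene in their list, beside 1.50% of all protein-coding genes. For auxin, ARF19, an activating auxin response factor, had 209 dex and 29 mock reads 295 bp upstream (fold 5.52), and IAA30, an Aux/IAA gene, had 140 dex and 20 mock reads 451 bp upstream (fold 5.30). Among 80 SAUR genes, AT1G75580 (SAUR51, fold 4.29) and AT4G34810 (SAUR5, fold 3.21) were bound, and none of 12 PIN and AUX1/LAX transporters. GH3 genes, whose enzymes join amino acids to auxin and related acids, were a group added after the members were seen, as were those of the next 3 sentences, and had 4 of 20 bound. They were GH3.17 (109 bp, fold 6.99), WES1 or GH3.5 (223 and 900 bp, folds 5.15 and 4.08), GH3.1 (162 bp, fold 4.08) and DFL1 or GH3.6 (224 bp, fold 3.08). PYL4 and PYL5, receptors of abscisic acid, were 2 of 14 (folds 3.37 and 3.12). STY2 (4 bp, fold 6.85, 251 dex over 28 mock reads) and STY1 (370 bp, fold 3.25), which regulate style development, were 2 of 12 genes of the SHI/STY family. Of the groups listed earlier, ARR7, a cytokinin response regulator, was the 1 bound of 24 ARR genes, with summits at 207 and 632 bp (folds 3.91 and 3.08), and GA2OX4 was the 1 bound of 16 gibberellin oxidases.

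IDA and IDA-like peptides, which signal through HAE and its homologue in floral organ shedding, had 3 of 6 genes bound in a group also added after the members were seen, and IDA itself had no proximal summit. IDL4 had 284 dex reads 749 bp upstream (fold 10.8), IDL1 had 276 dex and 25 mock reads 848 bp upstream (fold 8.4) with a core 12 bp away, and IDL3 had 77 dex and 20 mock reads 327 bp upstream (fold 2.94), close to the lower limit of the list. Receptor-like kinases had 8 of 284 genes of the list bound (2.82%), among them BAK1, RUL1 (143 bp, fold 6.47, 169 dex reads), HAE and LECRKA4.1, a lectin receptor kinase (152 bp, fold 5.09). The wider pattern gave 12 of 419 (2.86%) and added BRL1 (576 bp, fold 8.35), CRK2 (90 bp, fold 4.43, with a core), SRF6 (165 bp, fold 4.28) and AT1G53430 (557 bp, fold 3.2). Other groups added after the members were seen were the numbered MAPKKK genes, kinases at the top of a signalling cascade (4 of 21, folds 3.29 to 3.95), expansins, which loosen cell walls (3 of 36, EXLA3, EXPA8 and EXPB3 with folds of 10.7, 4.77 and 3.92), and myo-inositol oxygenases (2 of 4, MIOX2 and MIOX1 with folds of 4.24 and 2.95). As each was picked because members were seen in the list, its share carries no weight as evidence.

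Other large families were collected in the same way. The first list of RING and U-box ubiquitin ligases held 7 bound genes of 383 (1.83%), close to the 1.50% of all protein-coding genes. Its highest folds were at AT1G32530 (662 bp, fold 5.32) and AT1G49210 (463 bp, fold 5.11), both with a core, AT2G47560 (173 bp, fold 5.03) and LOG2 (593 bp, fold 4.45). The wider pattern gave 9 of 502 (1.79%) and added PUB22 (623 bp, fold 3.96) and AT3G27330. Neither list held BRG3, a BOI-related RING ligase gene with 2 promoter summits (folds 5.09 and 4.45). Ribosomal protein genes had 3 of 344 (0.872%, folds 3.95 to 4.33), while photosystem and light-harvesting genes (51), histones (53), ACR genes (13) and 14-3-3 genes (15) had none. The list of pentatricopeptide repeat genes held 2 bound genes of 282 (0.709%, folds 3.32 and 3.13). It missed LOJ, a gene of this family with a much higher fold (481 bp, fold 13.5). Of the loci that the study followed, AP1, RAX1, LSH2 and LMI2 had a proximal promoter summit, and ACR7 and the actin gene ACT7 had none. A missing summit shows only that no peak of the list lay in that promoter.

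The genes with the highest fold among those whose summit had a core within 25 bp were likewise mixed in function. After AT4G22980 (fold 9.57, core 1 bp from the summit) and AT4G24030 came BGLU27, a beta-glucosidase (fold 8.49, 322 dex reads, core 23 bp), IDL1, HAC5, a histone acetyltransferase of the CBP family (fold 7.36, 307 dex reads, core 14 bp), and AT5G46910, a jumonji family gene (fold 6.49, core 15 bp). LSH2 and WRKY11 followed, then TPPE, a trehalose-6-phosphate phosphatase (fold 5.87, 252 dex reads, core 5 bp), TUB6, a beta-tubulin (fold 5.77, core 5 bp), AT4G31875 and PP2-B14 (fold 5.45, core 2 bp). Members with a core had a median fold of 4.53 and a median of 135.5 dex reads (n = 64), and those without had 3.93 and 113 (n = 316), and these medians have no test.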

How the data were processed

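ChIP-seq of 9 libraries (3 dex, 3 mock and 3 input) was deposited as 1 peak list on TAIR10. The authors mapped reads with Bowtie2 2.3.1 and called peaks on the pooled dex against the pooled mock libraries with MACS2 (2.1.1.20160309 in the submitters' processing notes), without a model. The deposited fold is a ratio of pileup plus 1 over local mock background plus 1, the deposited −log10 p and −log10 q are those of the caller, and the deposited score, derived from the −log10 q, was not used. Inputs did not enter the calling. L.er reads were placed on the Columbia sequence.

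Gene bodies and starts came from the RefSeq annotation of TAIR10.1, whose chromosomes match TAIR10. The list gives no library depth. Dex reads and mock background at each summit were solved from fold and p under the MACS2 model for all 1181 peaks, with dex reads scaled by 0.7879. On 1000 peaks simulated under this same model 99.9% were recovered correctly. This checks the solving and cannot show that the model held for the real peaks. The simulated folds and mock reads did not reach the highest values of the list. Ratios divide scaled dex reads by mock reads at the summit. Reads carry no molecular identifiers, so intervals cover counting error only. Shares were compared with Fisher's exact test or, for paired windows, an exact binomial test, with Benjamini-Hochberg adjustment over 11 tests. Alternatives were other q thresholds, gene sets, upstream limits, core windows, mismatches, background windows, measures of strength and 1 summit per neighbourhood.

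The members and gene lists were chosen with earlier results of these data known. The text patterns that collect bHLH, Aux/IAA, GRF, receptor-like kinase, AP2/ERF and 14-3-3 genes were corrected after their first counts were seen, because they caught unrelated genes or missed members. For 10 families a wider pattern that also reads the annotated product was added after seeing the data. Named genes were those with the 15 highest folds, the 10 highest −log10 q, the 12 highest folds with a core within 25 bp, the 6 divergent pairs with the highest fold, the 6 genes with 2 summits and the most dex reads, up to 4 bound genes per family, the loci followed by the study and the members at the 1000 bp limit. Other names were picked after their values were seen. Core sequences are printed for 9 members and the others are not reported here.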

Additional observations from a re-analysis of the deposited data

Results flagged for a closer look

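The list also held 4 peaks on the chloroplast genome, which enter no comparison here; their folds were low, from 1.51 to 1.58, but above 1.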

How the results depend on the processing

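Of 89 alternatives tried on 12 results, 68 kept their direction and their side of the threshold of 0.05, or a count within 1.5 times. In 14, all on differences that were past the threshold neither in the report nor in the alternative, the sign changed. For fold above the median, promoters against 1000 to 3000 bp upstream (0.411 points) went to −2.49 at a −log10 q of at least 20, −4.65 at 50, −4.39 with 1 summit per neighbourhood and −1.02 with the 500 bp limit. Against the remaining intergenic summits (−3.97) the difference was 0.0227 with −log10 q and 3.04 with dex reads as strength, and within against beyond 500 bp (−2.02) it was 0.252 and 2.38 with these, 7.23 at a −log10 q of 20 and 2.76 at 50. Divergent against other summits (−10.1) went to 7.04 at 20. For the core, divergent against other (5.16) went to −0.211 with a 100 bp window and −9.66 with up to 1 mismatch, and promoters against gene bodies (3.37) to −2.7 with up to 1 mismatch. The number of promoter summits was 241 at a −log10 q of at least 20, 92 at a −log10 q of at least 50 and 210 with an upstream limit of 500 bp, by construction. The core difference between promoter and remaining intergenic summits was not past the threshold at a −log10 q of at least 50 (10.5 points, Fisher's exact test, adjusted p = 0.424), with a core window of 50 bp (5.9 points, adjusted p = 0.105) or with up to 1 mismatch (3.28 points, adjusted p = 0.721). The excess of cores at divergent summits passed it with the 500 bp limit (29.9 points, Fisher's exact test, adjusted p = 0.0466). Fewer summits entered at the stricter q, and the cause of these changes was not tested. Wider patterns moved the C2H2 share from 8.33% to 3.39% of its list and added no bound gene to 6 of the 10 families. Shares fell for TCP (9.09% to 5.41%), homeodomain (5.75% to 4.42%), WRKY (9.72% to 9.09%) and MADS-box factors (2.91% to 2.36%). They fell slightly for NAC factors (4.04% to 3.96%) and RING/U-box ligases (1.83% to 1.79%). Shares rose for LBD factors (0 to 2.33%) and receptor-like kinases (2.82% to 2.86%), and that of SPL factors stayed at 0. No paired analysis was possible because peaks were called on pooled libraries, and for the same reason no replicate could be left out. Shares resting on fewer than 50 summits have wide intervals, and folds at the floor are limited by mock depth.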
